A study of Mus musculus with 17 samples.

Results

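The subunits of AMP-activated protein kinase (AMPK) and the genes that carry the insulin signal from its receptor were followed across kidneys that express the renal cancer fusion PRCC-TFE3. The set was chosen by name and holds 10 genes, Prkaa1, Prkaa2, Prkab1, Prkab2, Prkag1, Prkag2, Insr, Irs1, Irs2 and Appl2, out of 35971 genes in the files (17011 tested), and all 10 passed the filter on low counts. The 10 listed transcripts of Prkag2 were also followed singly. RNA of whole kidneys from 17 mice at 8 months of age was read as single-end sequences of 75 nt. All mice carried the lsl-PRCC-TFE3 allele, a knockin in which a stop cassette holds the fusion silent until Cre recombinase removes the cassette. Cre(-) kidneys (n = 4) had no KSP-Cre, and replicates 1 and 2 of them also carried HIF1af/f whereas replicates 3 and 4 carried no flox allele. KI kidneys (n = 3) carried KSP-Cre and no flox allele, Hif1α KO kidneys (n = 4) carried KSP-Cre with HIF1af/f, Hif2α KO kidneys (n = 3) carried it with the flox allele of Hif2α, and DKO kidneys (n = 3) carried it with both. KSP-Cre is driven by the promoter of Cadherin 16, which is active in the tubule epithelium of the kidney, so vessels, blood cells and stroma of the same kidney kept their alleles. Because bulk RNA was read, fewer cells of a type and less RNA per cell cannot be told apart. The labels name each library as a separate sample and give no litter or batch.

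AMPK is the cell's energy sensor. It is built of a catalytic α subunit (Prkaa1 or Prkaa2), a β subunit that holds the complex together (Prkab1 or Prkab2), and a γ subunit that binds AMP, ADP and ATP (Prkag1, Prkag2 or Prkag3), and when ATP is scarce it turns down lipid and protein synthesis and turns up fuel oxidation. Insulin acts on the opposite side of this balance: it binds its receptor (Insr), which phosphorylates the docking proteins Irs1 and Irs2, and these recruit phosphoinositide 3-kinase and through it Akt and mTOR. Appl2 is an endosomal adaptor that binds the receptors of adiponectin and insulin pathway proteins.

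Prkag2 lies on the minus strand of chromosome 5 of GRCm38 from 24862744 to 25100642, with 10 GENCODE transcripts. Its longest transcript, Prkag2-201, begins at 25100642, and Prkag2-202 begins 104889 bases further inside the gene at 24995753, within an intron of the longer form. Irs2 is on chromosome 8 (10984681 to 11008458, minus strand) and Irs1 on chromosome 1 (82233101 to 82291416, minus strand). The other members lie on chromosome 15 (Prkaa1, 5143861 to 5181899, plus strand, and Prkag1, 98812797 to 98831521, minus strand), chromosome 4 (Prkaa2, 105029874 to 105109890, minus strand), chromosome 5 (Prkab1, 116013586 to 116024508, minus strand), chromosome 3 (Prkab2, 97658193 to 97673812, plus strand), chromosome 8 (Insr, 3122061 to 3279617, minus strand) and chromosome 10 (Appl2, 83600033 to 83648738, minus strand). The 300 bases around the starts (250 before the start and 50 after it) are shown for Prkag2, Irs1 and Irs2. They were picked because the most abundant transcript of Prkag2 differed between Cre(-) and KI kidneys, and Irs1 and Irs2 moved in opposite directions. Also, among all members it was in these 3 genes that a motif of the MiT/TFE factor family, to which TFE3 belongs, was found. The sequences are from RefSeq on GRCm38.p6, and capitals mark the E box CACGTG or the M box TCATGTG on either strand:
Prkag2, start of Prkag2-201, chr5:25100593-25100892, minus strand: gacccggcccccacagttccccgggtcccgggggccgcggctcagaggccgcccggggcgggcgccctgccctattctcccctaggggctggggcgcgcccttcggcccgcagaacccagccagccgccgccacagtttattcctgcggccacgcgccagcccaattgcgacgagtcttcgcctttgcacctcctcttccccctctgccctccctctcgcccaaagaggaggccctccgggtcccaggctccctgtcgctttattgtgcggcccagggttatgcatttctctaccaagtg
Prkag2, start of Prkag2-202, chr5:24995704-24996003, minus strand: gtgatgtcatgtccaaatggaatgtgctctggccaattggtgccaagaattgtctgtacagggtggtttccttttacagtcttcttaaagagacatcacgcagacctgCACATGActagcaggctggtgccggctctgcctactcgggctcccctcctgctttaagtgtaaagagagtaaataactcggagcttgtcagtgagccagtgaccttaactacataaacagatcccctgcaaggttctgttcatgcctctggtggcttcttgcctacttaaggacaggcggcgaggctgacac
Irs2, chr8:11008880-11009179, minus strand: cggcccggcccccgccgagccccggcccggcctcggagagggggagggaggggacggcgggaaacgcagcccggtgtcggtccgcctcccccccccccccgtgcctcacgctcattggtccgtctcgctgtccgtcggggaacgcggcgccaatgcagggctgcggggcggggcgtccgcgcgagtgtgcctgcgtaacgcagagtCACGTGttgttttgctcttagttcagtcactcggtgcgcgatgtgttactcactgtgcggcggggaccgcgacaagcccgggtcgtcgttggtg
Irs1, chr1:82291390-82291689, minus strand: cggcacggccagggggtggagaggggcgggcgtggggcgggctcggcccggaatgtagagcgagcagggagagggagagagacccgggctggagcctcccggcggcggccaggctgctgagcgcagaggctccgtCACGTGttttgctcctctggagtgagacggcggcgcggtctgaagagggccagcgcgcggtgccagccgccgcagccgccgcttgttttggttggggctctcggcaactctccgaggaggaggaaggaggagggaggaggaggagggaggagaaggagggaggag
The window of Prkag2-202 held an M box, on the opposite strand, that begins 142 bases before the start, and the window of Prkag2-201 held neither motif. The study gives the M box as TCAYRTGA (Y is C or T, R is A or G). The shorter TCATGTG searched here is followed by C in the window of Prkag2-202, so the study's longer form is not matched there. Irs2 had an E box that begins 44 bases before the RefSeq start (which lies upstream of the GENCODE start), and Irs1 had one 115 bases before it. RefSeq windows were found for 9 of the 10 genes (11 windows), and no other member window held either motif. Of 32851 promoter windows of the same length, 7.15% held CACGTG and 3.77% held TCATGTG on either strand, and 19.6% held ACGTG, the core of the hypoxia response element, which lies inside every CACGTG. Among the members ACGTG occurred only in the E boxes of Irs1 and Irs2. A match of letters is a description of the sequence and was not set against any binding data here.

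Each library held 16504419 to 24668827 estimated reads, and 3 reads, taken as the smallest amount that a library can show, equal 0.117 to 0.206 CPM (counts scaled to a common library size), with counting error only. Gpnmb, a transcript that TFE3 is known to switch on, stood at 0.993 to 2.14 CPM in Cre(-) kidneys and at 2806 to 15629 CPM in the 13 kidneys with Cre, so the labels of Cre were borne out in all 17. The knockouts could not be checked in this way, because counts over whole transcripts do not show the loss of a floxed exon. Hif1a had 163 to 198 CPM in Hif1α KO against 184 to 232 CPM in KI kidneys, and Epas1 (Hif2α) had 136 to 149 CPM in Hif2α KO against 173 to 192 CPM. The mix of cells differed with Cre. All 10 proximal tubule markers were lower in KI kidneys (summed level 989 to 1256 CPM, against 15217 to 16914 CPM in Cre(-)), and 5 of 6 leukocyte markers were higher (1193 to 1205 CPM against 29.9 to 36.6 CPM), with none of either list at 0 in a whole group. Adipocyte markers reached 2079 CPM in KI replicate 2, against 83.4 CPM in the lowest KI kidney and at most 409 CPM in any other group. The part of these shifts in the values given here was not tested.

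Between KI and Cre(-) kidneys, 9 of the 10 genes passed the test. Prkag2, Irs2, Appl2, Prkab1, Prkab2 and Prkaa1 rose, Insr, Irs1 and Prkaa2 fell, and Prkag1 did not pass. For all 9 the KI values lay wholly outside the range of the Cre(-) values. How many of all genes were separated in this way was not counted, here or in the comparisons below. The background is high in this comparison, since 31.6% of the 17011 tested genes were called higher and 29.3% lower, and the members' median log2 fold change was 0.40 against 0.03 over all genes. Changes were called with the quasi-likelihood test of edgeR where the Benjamini-Hochberg adjusted p, taken over all tested genes, was under 0.05. What sets Prkag2, Irs2 and Appl2 apart is size, with rises of 8.89, 5.49 and 4.93-fold, whereas no other member moved by more than 2.59-fold. These 3 genes also belong to a list that the study drew from these same samples by a rise in KI and a fall in Hif1α KO kidneys, so their directions are not independent evidence of either.

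**Figure D1:**
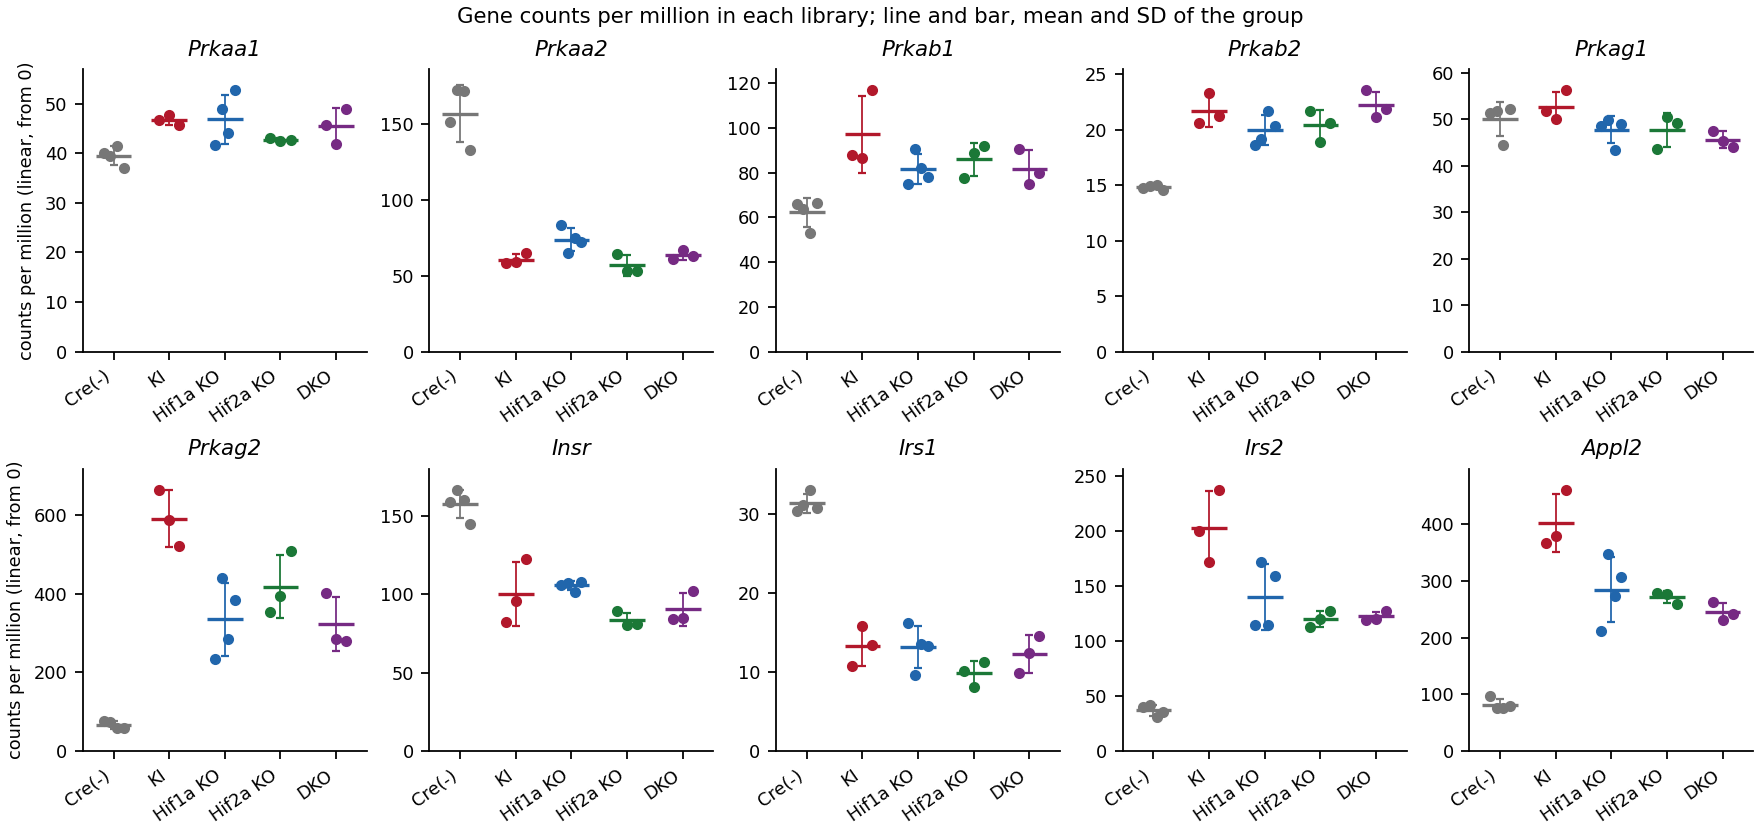
CPM of the 10 genes (linear axes from 0, one panel a gene), with a point for each of the 17 libraries, a line for the group mean and a bar for its SD. Prkag2, Irs2 and Appl2 sit low in Cre(-) kidneys (57.5 to 76.8, 30.8 to 41.3 and 75.3 to 96.0 CPM), highest in KI kidneys and between these in the knockout kidneys, while Prkaa2, Irs1 and Insr are highest in Cre(-) kidneys.

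The order of the members was read per transcript length, as TPM. In Cre(-) kidneys Appl2 was highest, at 68.6 ± 4.36 TPM (SD, n = 4), followed by Prkab1 (44.2 ± 4.59), Prkag1 (40.8 ± 4.05) and Prkag2 (36.2 ± 5.25), and the ranges of these last 3 overlapped from each to the next. Insr (23.1 ± 2.97) and Prkaa2 (21.9 ± 3.66) also overlapped and stood above Prkaa1 (9.53 ± 0.80). Irs2 (6.48 ± 1.01), Prkab2 (4.50 ± 0.86) and Irs1 (3.78 ± 0.29) were lowest, and the last pair overlapped. In KI kidneys Appl2 (528 ± 37.3 TPM, n = 3) and Prkag2 (488 ± 102) led with overlapping ranges and stood well apart from the next gene, Prkab1 (92.2 ± 9.58). Irs2 (49.0 ± 5.61) now stood above Insr (20.1 ± 3.36), and Prkaa2 (11.6 ± 0.05) stood below Prkaa1 (15.6 ± 1.15), whose range met that of Insr. In the Hif1α KO, Hif2α KO and DKO kidneys the order of the 10 genes was the same as in KI kidneys, again with Appl2 and Prkag2 at the top and overlapping, while Prkaa1 overlapped Prkaa2 in Hif1α KO and Insr in DKO kidneys.

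The catalytic subunits moved in opposite directions. Prkaa2, the α2 subunit and the more abundant one in the kidneys without Cre, stood at 151, 172, 171 and 133 CPM in Cre(-) and at 58.3, 58.7 and 64.8 CPM in KI kidneys. Every KI kidney lay far below every Cre(-) kidney, and the log2 fold change was -1.37 (SE 0.11, edgeR adjusted p = 5.75e-08). Prkaa1, the α1 subunit, had 40.0, 39.5, 41.5 and 36.9 CPM in Cre(-) and 46.7, 47.7 and 45.8 CPM in KI kidneys. It rose by a small amount, with a log2 fold change of 0.24 (SE 0.08, edgeR adjusted p = 0.0125) and no overlap of the groups. As a share of α subunit TPM, Prkaa2 made up 69.5% ± 1.85 (SD, n = 4) in Cre(-) kidneys and 42.8% ± 1.91 (n = 3) in KI kidneys. The groups did not overlap (67.4% to 71.5% against 41.5% to 45.0%), and an exact two-sided permutation test gave p = 0.057, the smallest that 4 against 3 kidneys allow (adjusted p = 0.23 over 16 share comparisons).

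Both β subunits rose, and by like amounts. Prkab1, the β1 subunit, had 66.2, 63.8, 52.9 and 66.4 CPM in Cre(-) and 88.0, 86.6 and 117 CPM in KI kidneys (log2 fold change 0.64, SE 0.12, edgeR adjusted p = 0.00019). KI replicate 3 stood well above the other KI kidneys. Prkab2, the β2 subunit, was nearly constant in Cre(-) kidneys at 14.7, 14.9, 15.0 and 14.6 CPM, and had 20.6, 23.3 and 21.3 CPM in KI kidneys (log2 fold change 0.55, SE 0.08, edgeR adjusted p = 1.63e-05). The share of Prkab2 in β subunit TPM was 9.24% ± 1.53 in Cre(-) and 7.86% ± 2.36 in KI kidneys, a difference smaller than the spread of either group (exact two-sided permutation test, p = 0.34).

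The γ subunits parted most. Prkag2, the γ2 subunit, stood at 76.8, 72.7, 57.5 and 58.8 CPM without Cre and at 664, 587 and 520.4 CPM in KI kidneys. The lowest KI kidney was several times the highest Cre(-) kidney, and the log2 fold change was 3.15 (SE 0.21, edgeR adjusted p = 1.15e-08). Prkag1, the γ1 subunit, had 51.4, 51.9, 44.5 and 52.2 CPM in Cre(-) and 51.8, 50.1 and 56.3 CPM in KI kidneys. These ranges overlapped, and its log2 fold change was 0.08 (SE 0.08, edgeR adjusted p = 0.401). The 5′ end of Prkag1 lies over Kmt2d on the same strand, so reads there can be shared between the 2 genes. Prkag3, the γ3 subunit best known from skeletal muscle, is no member of the set. It fell from 7.95, 12.0, 18.5 and 19.3 CPM in Cre(-) kidneys to 1.09, 0.70 and 0.69 CPM in KI kidneys (log2 fold change -4.12, SE 0.48, edgeR adjusted p = 2.6e-06). Prkag2 thus held 43.0% ± 4.19 (SD, n = 4) of γ subunit TPM in Cre(-) kidneys and 89.4% ± 2.11 (n = 3) in KI kidneys. The ranges were 39.8% to 49.1% and 87.2% to 91.4% (exact two-sided permutation test, p = 0.057, the smallest possible, adjusted p = 0.23).

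The sizes of the small changes depend on how libraries are scaled. Scaling by library totals alone, in place of TMM factors, moved the median log2 fold change of all genes to 0.37 and the called genes from 51.9% higher to 74.1% higher. The same change took the calls in Hif2α KO and DKO against KI kidneys from 53.4% and 51.3% higher to 79.6% and 74.6% higher. On library totals Prkag1 had a log2 fold change of 0.42 in KI against Cre(-) kidneys and passed the test, close to the shift of the median. With limma on log2(TPM + 1), Insr had -0.20 (adjusted p = 0.184) and no longer passed, while Prkag1 had 0.45. The directions of the 9 called members were the same under every scaling tried.

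**Figure D2:**
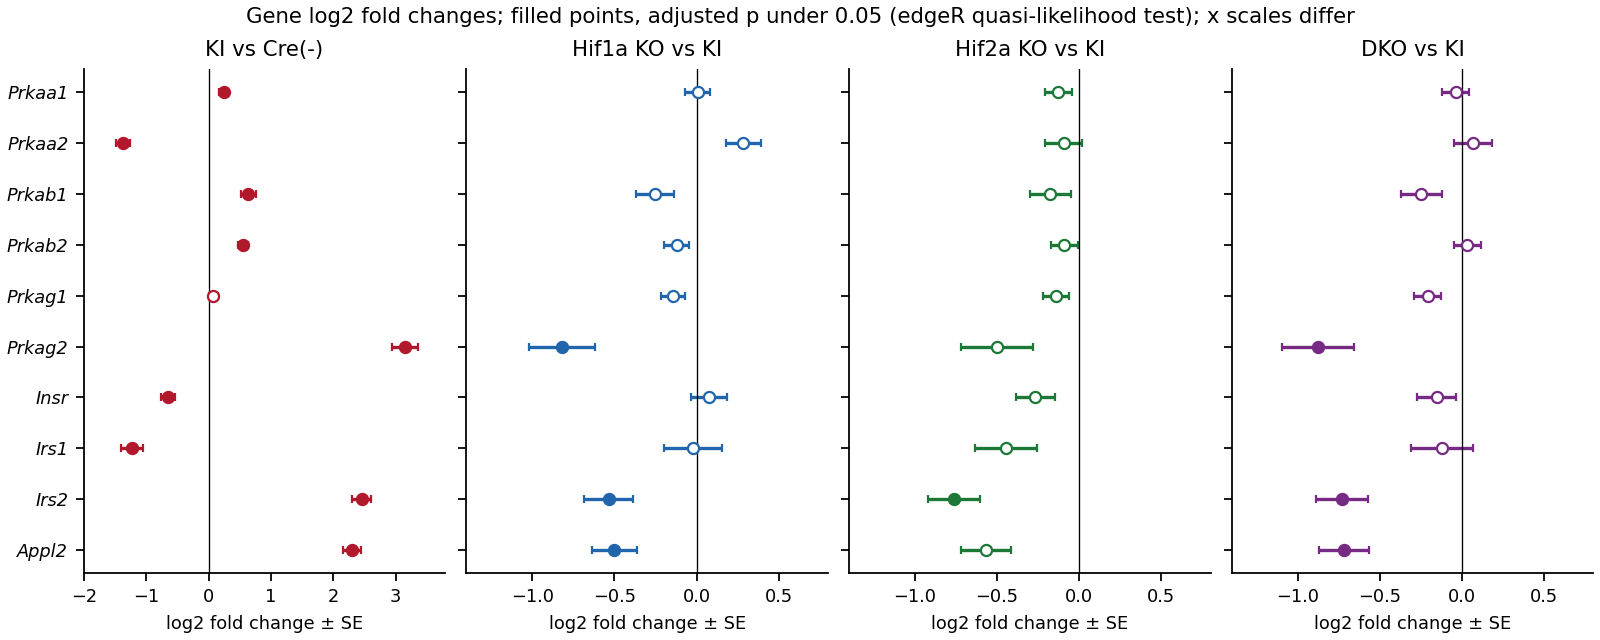
Log2 fold change (x axis, different scales for the first panel and the others) with its SE for each of the 10 genes in KI against Cre(-) kidneys and in each knockout group against KI kidneys. Filled points have an edgeR adjusted p under 0.05, which are 9 genes in the first panel and 3, 1 and 3 in the others, where the filled points are to the left of 0.

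The rise of Prkag2 was carried by transcripts that start inside the gene. Prkag2-202 was listed at 0.84, 0.58, 0.14 and 0.29 TPM in Cre(-) kidneys, which rests on 32.3, 25.5, 5.11 and 12.2 estimated reads. In KI kidneys it stood at 279, 252 and 206 TPM. Its log2 fold change on the count scale was 8.61 (SE 0.47, edgeR adjusted p = 2.34e-08 over 51539 transcripts). The long form Prkag2-201 moved little by comparison. Its Cre(-) values were 16.8, 18.6, 16.4 and 14.8 TPM and its KI values 19.1, 19.1 and 16.7 TPM. On the TMM scale it was called lower (log2 fold change -0.31, SE 0.08, edgeR adjusted p = 0.011), but on library totals its value was 0.02 (edgeR adjusted p = 0.925), so no direction can be given for it.

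Annotated transcripts without a full reading frame rose as well. Prkag2-207, a retained-intron transcript near the 3′ end, went from 11.6 TPM on average (8.14 to 16.1) to 162 TPM (123 to 223). Prkag2-205, Prkag2-208 and Prkag2-209 rose with log2 fold changes of 3.01, 3.43 and 3.57. In all, 8 transcripts passed the filter on low counts, of which 5 were called higher and 1 lower, against 12.9% and 11.4% of all tested transcripts. Prkag2-202 had 492 exonic bases in no other transcript of the gene, all in its first exon (24995262 to 24995753), and Prkag2-201 had 988. Prkag2-207 had only 94 such bases of its 651, so most of its reads could also have come from Prkag2-202, and how the reads were divided between them is the authors' estimate. Prkag2-203 had none. It was listed at 4.63 and 6.46 TPM in Cre(-) replicates 1 and 2 and at 8.04 TPM in Hif1α KO replicate 1, and at 0 in the other 14 libraries.

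The balance between the transcripts changed with the gene's level. A test of unequal transcript usage within genes (diffSpliceDGE of edgeR, with Simes p-values) called Prkag2 in KI against Cre(-) kidneys with an adjusted p of 1.21e-17, where 3.26% of 11260 genes were called. Prkag2-202 had gained and Prkag2-201 and Prkag2-203 had lost within the gene, and none of the other 6 members with 2 or more tested transcripts was called. Prkag2-202 made up 1.20% ± 0.68 (SD, n = 4) of Prkag2 TPM in Cre(-) kidneys and 50.8% ± 3.23 (n = 3) in KI kidneys. The groups did not overlap, and no test is given, because Prkag2-202 was picked as the gene's most abundant transcript in KI kidneys. In the Hif1α KO, Hif2α KO and DKO kidneys the share was 46.8% ± 2.78, 48.8% ± 3.31 and 46.0% ± 4.67, and all 13 kidneys with Cre had more Prkag2-202 than Prkag2-201.

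Against KI kidneys no single Prkag2 transcript passed in any knockout group. At an unadjusted p under 0.05 there were 5 of 8 in Hif1α KO, 0 in Hif2α KO and 4 in DKO kidneys, where 9.47%, 7.48% and 11.8% of all tested transcripts had such a p. After adjustment edgeR called 0.0757%, 0.00582% and 0.631% of all transcripts in these comparisons. DESeq2 was not run on transcripts. Prkag2-202 had 75.2, 176, 106 and 150.0 TPM in Hif1α KO kidneys (log2 fold change -0.93, SE 0.34, edgeR adjusted p = 0.369), and Prkag2-201 had 15.6, 17.9, 15.3 and 17.6 TPM. Usage of Prkag2 was called in Hif1α KO against KI kidneys (adjusted p = 0.0434 by diffSpliceDGE of edgeR, 0.773% of genes called), but this rested on Prkag2-203 in Hif1α KO replicate 1, and without that library the adjusted p was 1. Without KI replicate 1, 2 or 3 it was 0.209, 0.199 and 0.195 (edgeR). Usage was not called in Hif2α KO or DKO kidneys (0.808% and 0.71% of genes called).

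**Figure D3:**
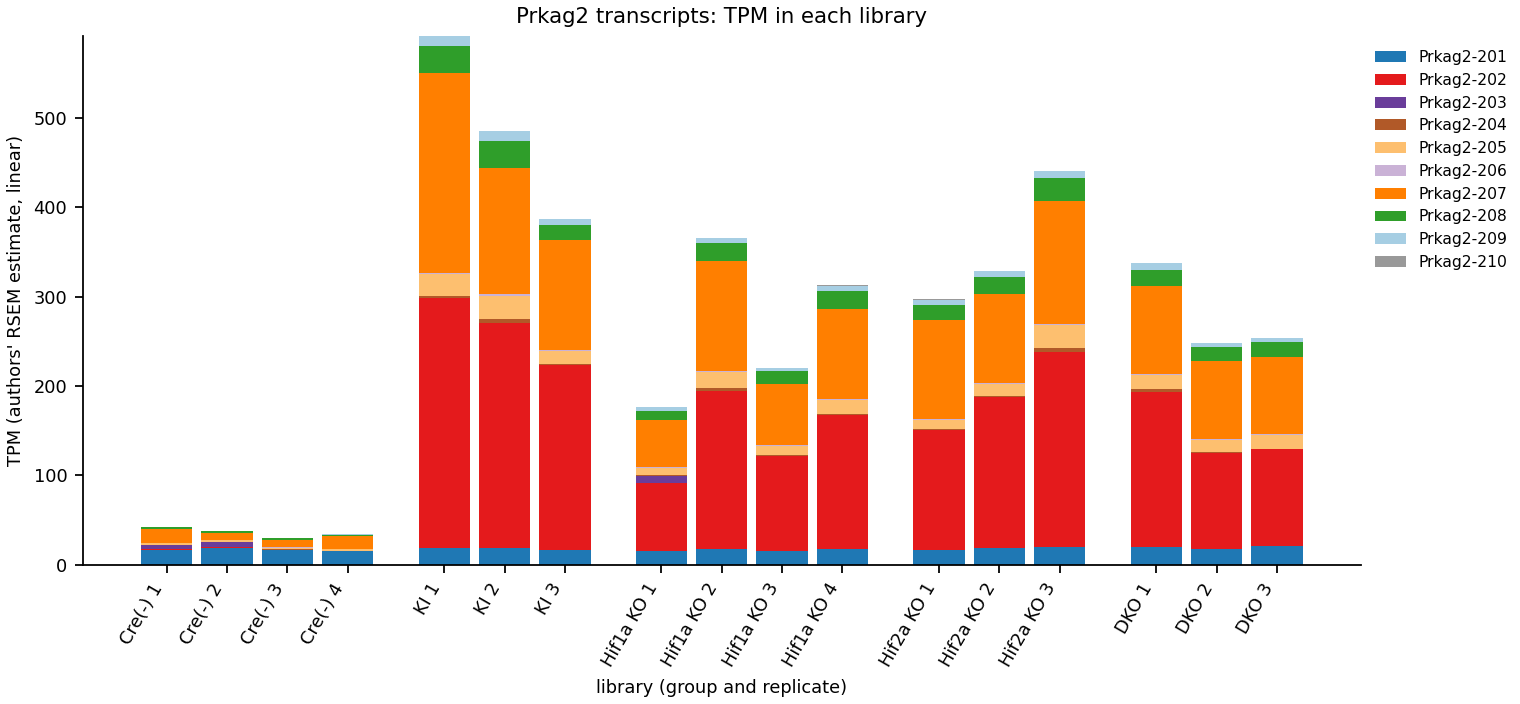
TPM of the 10 Prkag2 transcripts stacked for each of the 17 libraries (linear axis from 0). Prkag2-201 is a thin band of 14.8 to 20.6 TPM at the foot of every bar, and Prkag2-202, at or under 0.84 TPM in Cre(-) kidneys, is the thickest band in all 13 kidneys with Cre, followed by Prkag2-207.

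On the insulin side the receptor and its 2 substrates did not move together. For Insr, the receptor, the Cre(-) values were 159, 167, 160.3 and 145 CPM and the KI values 82.5, 95.9 and 123 CPM. The KI kidneys lay below all Cre(-) kidneys but were widely spread, and the log2 fold change was -0.65 (SE 0.11, edgeR adjusted p = 0.000113). Irs1 had 30.4, 31.1, 33.0 and 30.7 CPM in Cre(-) and 10.7, 15.8 and 13.4 CPM in KI kidneys. It fell by 1.23 on the log2 scale (SE 0.18, edgeR adjusted p = 2.21e-05). Irs1 lies over the predicted gene Gm9747 on the other strand; the libraries were stranded, and whether the counting used strand is not given in the sources used here.

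Irs2 went the other way. Its Cre(-) values were 40.2, 41.3, 30.8 and 35.4 CPM and its KI values 199.6, 172 and 238 CPM (log2 fold change 2.46, SE 0.15, edgeR adjusted p = 5.23e-09). As a share of the TPM of both substrates, Irs2 made up 62.9% ± 3.91 in Cre(-) kidneys and 95.6% ± 1.35 in KI kidneys, a pair of values chosen after they were seen and given with no test. The lowest Cre-positive kidney, Hif1α KO replicate 1, still had 91.1%. Appl2, the adaptor, had 96.0, 75.5, 75.3 and 80.0 CPM in Cre(-) and 366, 379.8 and 461 CPM in KI kidneys. Its log2 fold change was 2.30 (SE 0.14, edgeR adjusted p = 5.03e-09), and Cre(-) replicate 1 was the highest of its group.

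**Figure D4:**
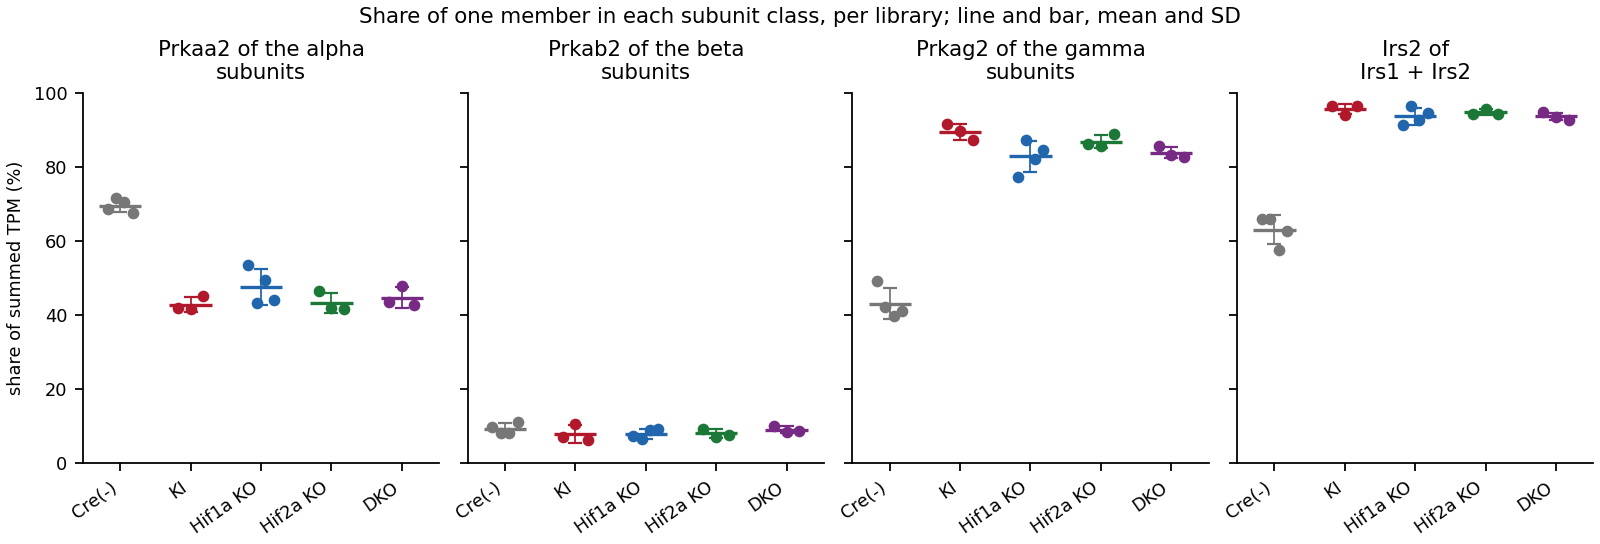
Share of summed TPM (%) held by Prkaa2 among α subunits, Prkab2 among β subunits, Prkag2 among γ subunits and Irs2 among Irs1 and Irs2, with a point for each library, a line for the group mean and a bar for its SD. The α, γ and Irs panels separate the 4 Cre(-) kidneys from all 13 kidneys with Cre, whereas the β shares of all groups overlap between 6.04% and 11.2%.

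The knockout groups ask whether the members' levels in KI kidneys depend on Hif1α or Hif2α. In Hif1α KO against KI kidneys 3 members fell, which were Prkag2, Irs2 and Appl2, where 2.86% of all tested genes were called lower. Prkag2 had 234, 439.7, 284 and 382 CPM in Hif1α KO kidneys, all below the 3 KI kidneys, and fell by 0.82 on the log2 scale (SE 0.20, edgeR adjusted p = 0.0309). Irs2 had 114, 172, 115 and 159 CPM and overlapped the lowest KI kidney (log2 fold change -0.53, SE 0.15, edgeR adjusted p = 0.0463). Appl2 had 211, 348, 273 and 307 CPM, all below KI (log2 fold change -0.50, SE 0.14, edgeR adjusted p = 0.0483). DESeq2 called all 3 (DESeq2 adjusted p = 0.00224 for Prkag2, 0.00994 for Irs2 and 0.00994 for Appl2). It called 782 of all genes higher and 883 lower. Replicates 1 and 3 were the lowest of the group in all 3 genes. The edgeR calls stood close to the threshold, and some or all were lost when certain single libraries were left out. All genes called went from 438 higher and 487 lower to 142 and 166 without Hif1α KO replicate 1. They went to 140 and 133 without Hif1α KO replicate 3. Without KI replicate 1, 2 or 3 they were 304 and 318, 139 and 222, and 268 and 246. Over all fits with a library left out, Prkag2's log2 fold change was -0.98 to -0.68. That of Irs2 was -0.65 to -0.41 and that of Appl2 -0.61 to -0.38. Without Hif1α KO replicate 1 the edgeR adjusted p was 0.0802 for Prkag2, 0.118 for Irs2 and 0.103 for Appl2, and without replicate 3 it was 0.0983, 0.130 and 0.124. Without KI replicates 1, 2 or 3 the edgeR adjusted p was 0.0865, 0.0779 and 0.0481 for Prkag2, 0.0847, 0.0508 and 0.171 for Irs2, and 0.0603, 0.0891 and 0.169 for Appl2, and without Hif1α KO replicate 4 that of Appl2 was 0.0657. With a score of the adipocyte markers as a covariate the log2 fold changes were -0.74, -0.54 and -0.48 for Prkag2, Irs2 and Appl2, close to those above, but none of the 3 passed (edgeR adjusted p = 0.0694, 0.0808 and 0.104). The share of all genes called in either direction also fell, from 5.44% to 2.26%. In Hif2α KO kidneys Irs2 had -0.77 with the covariate (edgeR adjusted p = 0.068), and the share of all genes called went from 1.39% to 0.37%.

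In Hif2α KO against KI kidneys 1 member fell, Irs2, where 0.647% of all tested genes were called lower. Irs2 had 113, 119.7 and 127 CPM, a narrow range below all KI kidneys (log2 fold change -0.76, SE 0.16, edgeR adjusted p = 0.033). The call was lost without KI replicate 3 (edgeR adjusted p = 0.169) or without Hif2α KO replicate 1, 2 or 3 (0.0853, 0.0934 and 0.0676). All genes called went from 126 higher and 110 lower to 7 and 6 without KI replicate 3. Without Hif2α KO replicate 1, 2 or 3 they were 78 and 51, 27 and 16, and 53 and 26. Irs2's log2 fold change was -0.87 to -0.63 with a library left out. DESeq2 called Irs2 and Appl2 (DESeq2 adjusted p = 0.000705 and 0.00982), with 532 of all genes higher and 483 lower. Appl2 had 278, 278 and 258 CPM, also below all KI kidneys (log2 fold change -0.57, SE 0.15, edgeR adjusted p = 0.0645, and 0.0442 without KI replicate 1). Prkag2 had 352, 394 and 507 CPM (log2 fold change -0.50, SE 0.22, edgeR adjusted p = 0.229), with replicate 3 just under the lowest KI kidney.

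In DKO against KI kidneys the same 3 members as in Hif1α KO kidneys fell, where 6.19% of all tested genes were called lower. Prkag2 had 402, 284 and 281 CPM (log2 fold change -0.87, SE 0.22, edgeR adjusted p = 0.0192), Irs2 had 119, 120.3 and 127 CPM (-0.73, SE 0.16, adjusted p = 0.0102) and Appl2 had 263, 231 and 241 CPM (-0.72, SE 0.15, adjusted p = 0.0086). All values of the 3 genes lay below the KI values. Prkag2 was not called without DKO replicate 2 or 3 (edgeR adjusted p = 0.0892 and 0.0855), nor Irs2 without KI replicate 3 (0.0511). Appl2 was called in every fit with a library left out. All genes called went from 1111 higher and 1053 lower to 369 and 353 without DKO replicate 2. They went to 407 and 383 without DKO replicate 3 and to 423 and 492 without KI replicate 3. The 3 comparisons share the same KI kidneys, so they do not stand independently of each other.

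Gpnmb, the TFE3 target described above, was lower in Hif1α KO and DKO than in KI kidneys, with log2 fold changes of -1.35 (edgeR adjusted p = 0.0318) and -1.80 (edgeR adjusted p = 0.00824). In Hif2α KO kidneys its value was -0.77 and did not pass (edgeR adjusted p = 0.262). It had 13009, 14211 and 15629 CPM in KI kidneys, 3269, 7175, 4539 and 7452 CPM in Hif1α KO, 4953, 8779 and 11387 CPM in Hif2α KO and 6415, 2806 and 3113 CPM in DKO kidneys. The 10 proximal tubule markers summed to 1481 to 3394 CPM in Hif1α KO, 1064 to 2891 CPM in Hif2α KO and 1827 to 2889 CPM in DKO kidneys, against 989 to 1256 CPM in KI kidneys. The 6 leukocyte markers summed to 590.1 to 819, 781 to 875 and 468 to 706 CPM, against 1193 to 1205 CPM. The part of Gpnmb's level and of these cell markers in the lower values of Prkag2, Irs2 and Appl2 was not tested.

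The other 7 members did not pass in any knockout group against KI kidneys. Prkaa2 came nearest in Hif1α KO kidneys, at 83.3, 64.9, 75.1 and 72.0 CPM, which were all above the KI kidneys by a narrow margin (log2 fold change 0.28, SE 0.11, edgeR adjusted p = 0.13). Prkag1 was the nearest in DKO kidneys, at 47.6, 45.3 and 44.0 CPM, all below KI (log2 fold change -0.21, SE 0.08, edgeR adjusted p = 0.0997). Irs1 and Insr in Hif2α KO kidneys had log2 fold changes of -0.44 (SE 0.19) and -0.27 (SE 0.12), with edgeR adjusted p of 0.216 and 0.232. The share of Prkag2 in γ subunit TPM was 82.7% ± 4.20 in Hif1α KO (exact two-sided permutation test against KI, p = 0.057, the smallest possible, adjusted p = 0.23), 86.8% ± 1.76 in Hif2α KO (p = 0.2, adjusted p = 0.4) and 83.8% ± 1.60 in DKO kidneys (p = 0.1, the smallest that 3 against 3 allow, adjusted p = 0.32). The α shares of Prkaa2 were 47.6% ± 4.83, 43.2% ± 2.68 and 44.6% ± 2.80, and overlapped those of KI kidneys in each group.

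Between the knockout groups 0 members passed by edgeR. In Hif1α KO against Hif2α KO kidneys 3 of 10 members had an unadjusted p under 0.05, as did 14.9% of all genes, and after adjustment edgeR called 0.429% of all genes. DESeq2 called 1 member, Prkaa2, and 3.16% of all genes. Prkaa2 and Insr were higher in every Hif1α KO kidney than in every Hif2α KO kidney, with log2 fold changes of 0.38 (SE 0.11, edgeR adjusted p = 0.11) and 0.34 (SE 0.11, adjusted p = 0.16). Prkag2 had -0.32 (SE 0.20), Irs2 0.23 (SE 0.15) and Appl2 0.07 (SE 0.14) in the same comparison. In DKO against Hif1α KO kidneys and DKO against Hif2α KO kidneys, 0 members had an unadjusted p under 0.05, against 13.0% and 5.58% of all genes. After adjustment edgeR called 0.406% and 0.00588% of all genes. DESeq2 called 0 members in either comparison. Of all 17011 genes it called 154 higher and 264 lower against Hif1α KO, and 10 higher and 8 lower against Hif2α KO kidneys. The test of the interaction asks whether the double knockout differs from the sum of the single ones. It called 0 members and 0.0% of all genes by edgeR. By DESeq2 it called 0 members, and of all 17011 genes 10 with a positive and 21 with a negative interaction. An unadjusted p under 0.05 was found for 2 of 10 members and for 5.95% of all genes. Those 2 were Irs2, with an interaction of 0.56 (SE 0.22, edgeR adjusted p = 0.78), and Prkab2, with 0.24 (SE 0.11, adjusted p = 0.837).

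The 9 members called in KI kidneys had log2 fold changes of the same sign against Cre(-) kidneys in all knockout groups. In Hif1α KO kidneys 6 rose and 3 fell, where 31.9% of all genes were called higher and 30.1% lower. In Hif2α KO kidneys 5 rose and 3 fell (32.0% and 29.9% of all genes), with Prkaa1 not passing at 0.11 on the log2 scale (SE 0.08, edgeR adjusted p = 0.211). In DKO kidneys 6 rose and 3 fell (30.4% and 27.9% of all genes). Prkag2 was still 5.04, 6.29 and 4.85-fold above Cre(-) in Hif1α KO, Hif2α KO and DKO kidneys, Irs2 3.79, 3.24 and 3.31-fold, and Appl2 3.48, 3.32 and 3.00-fold. For each of these 3 genes every kidney with Cre lay above every Cre(-) kidney. The log2 fold changes of Prkaa2 were -1.09, -1.47 and -1.30, those of Irs1 -1.25, -1.68 and -1.35, and those of Insr -0.58, -0.92 and -0.80. These comparisons share the Cre(-) kidneys with each other and with that of KI kidneys. Either pair of Cre(-) kidneys alone, those with HIF1af/f or those without, gave 9 called members in KI kidneys.

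Genes that surround the members were taken from 4 lists of pathway genes. In KI against Cre(-) kidneys, 8 of 24 tested activators and partners of AMPK rose and 3 fell, with a median log2 fold change of 0.01 (0.03 over all genes). Camkk1, a kinase that activates AMPK on calcium signals, rose from 2.12 ± 0.85 to 12.3 ± 1.96 CPM, and Fnip2, which binds folliculin and AMPK, from 129 ± 5.99 to 387 ± 31.0 CPM. Cidea, a lipid droplet protein that binds AMPK, also passed but varied widely, at 1.59 ± 2.56 and 7.03 ± 6.28 CPM. Besides Prkag3, the genes that fell were Stradb and Cab39l, partners of the AMPK kinase LKB1, with log2 fold changes of -0.72 and -0.47.

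Of 30 AMPK substrates and effectors, 9 rose and 13 fell (median -0.08). Acacb, the acetyl-CoA carboxylase that guards fatty acid entry into mitochondria, rose from 71.6 ± 6.76 to 374 ± 54.9 CPM, Eef2k, which slows translation elongation, from 9.79 ± 1.71 to 47.8 ± 4.58 CPM, and Tsc1, a brake on mTOR, from 73.5 ± 2.30 to 168 ± 14.3 CPM. The largest falls were in Cpt1b, a carnitine palmitoyltransferase (43.8 ± 4.39 to 2.31 ± 1.17 CPM), Slc12a1, the salt transporter of the thick ascending limb (1972 ± 475 to 162 ± 57.9 CPM), and Hnf4a, a proximal tubule transcription factor (898 ± 30.3 to 218 ± 48.1 CPM). Slc12a1 and Hnf4a are themselves marks of tubule segments, and the markers of the thick ascending limb went down with them (summed over 5 markers, 851 to 1508 CPM against 7239 to 9364 CPM).

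Of 32 tested receptors, adaptors and kinases of insulin and IGF1 signaling (33 listed), 13 rose and 8 fell (median 0.08). The docking protein Dok1 (3.36 ± 0.84 to 14.9 ± 1.10 CPM), the adaptor Sh2b2 and the kinase subunit Pik3cd rose most, and Insrr, the insulin receptor-related receptor (44.2 ± 6.48 to 3.39 ± 1.28 CPM), the glucose transporter Slc2a4 and Mtor fell most. Of 22 inhibitors of insulin signaling 7 rose and 5 fell (median 0.08). Socs3, a suppressor of cytokine and insulin signaling, rose from 3.93 ± 0.55 to 50.5 ± 11.4 CPM, and Grb14, which binds and inhibits the insulin receptor, fell from 34.9 ± 1.76 to 9.04 ± 2.87 CPM. In each list the shares called in either direction can be set beside the 31.6% and 29.3% of all genes.

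Of all tested genes, 5.44% were called in either direction in Hif1α KO, 1.39% in Hif2α KO and 12.7% in DKO kidneys against KI kidneys, and the lists are given beside these shares. In Hif1α KO kidneys 1 AMPK partner rose (Cab39l, log2 fold change 0.38) and 1 fell (Fnip2, -0.47), 1 effector rose (Slc12a1, 1.65), 2 insulin pathway genes fell (Akt2, -0.35, and Prkcz, -0.43) and 1 inhibitor rose (Inpp5d, 0.75). In Hif2α KO kidneys the only gene called in the 4 lists was Flcn, folliculin, at -0.43 (edgeR adjusted p = 0.0489). In DKO kidneys 1 AMPK partner rose (Cab39l, 0.37) and 4 fell, which were Camkk1 (-1.03), Fnip2 (-0.72), Flcn (-0.48) and Fnip1 (-0.41). Slc12a1 (1.68) rose and Acacb (-0.82) and Tsc1 (-0.68) fell among the effectors. Pik3r3 (1.16), a regulatory subunit of phosphoinositide 3-kinase, rose among the insulin pathway genes, and those that fell included Prkcz (-0.37) and Akt2 (-0.32). Of the inhibitors Grb14 (0.70) and Enpp1 (0.45) rose and Trib3 (-0.95), Eif4ebp1 (-0.64) and Igfbp3 (-0.63) fell. Genes in this paragraph are named because they were called, after their values were seen.

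**Figure D5:**
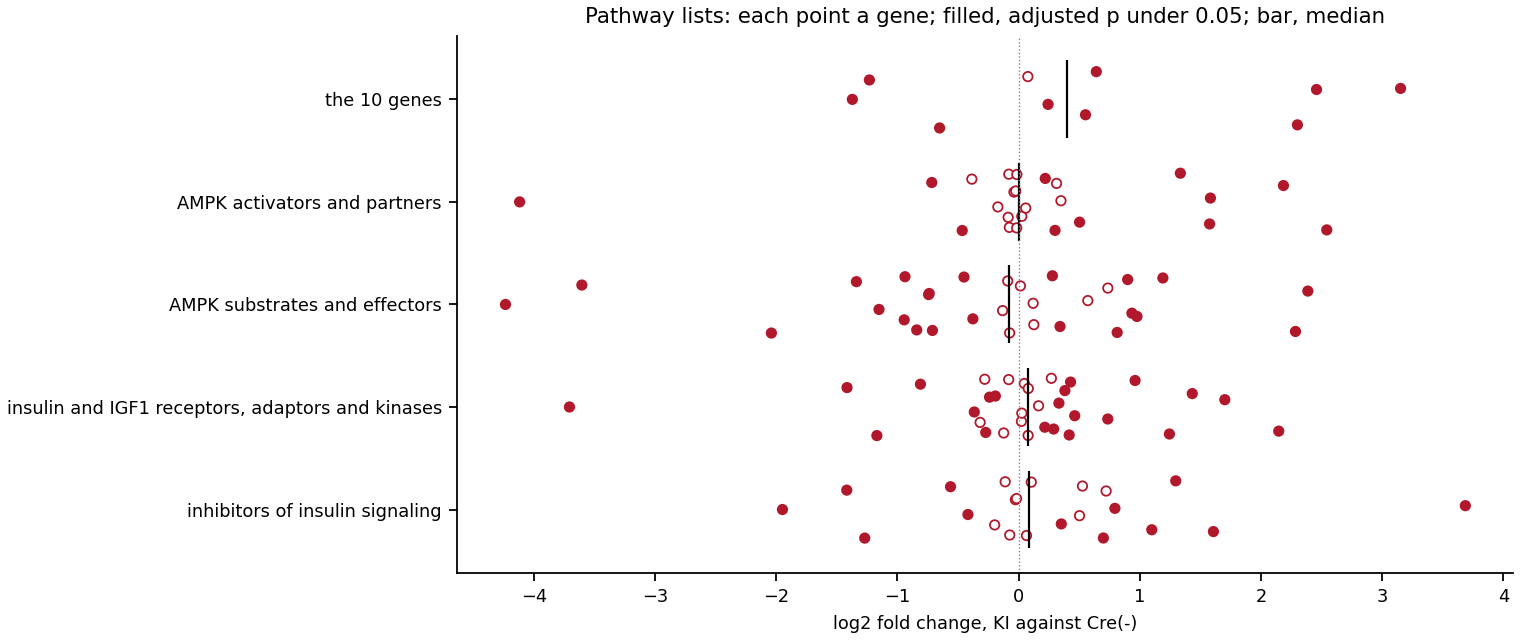
Log2 fold change of KI against Cre(-) kidneys (x axis) for the 10 genes and for the tested genes of the 4 pathway lists, one point a gene, filled where the edgeR adjusted p was under 0.05, with a bar at the median. Prkag2 at 3.15, Irs2 at 2.46 and Appl2 at 2.30 form the right end of the top row, and the medians of the 4 lists lie between -0.08 and 0.08.

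Over all 17 libraries the tested genes most like Prkag2 in log2 CPM were Tbc1d24, Dennd2a, Stx12, Pomk and Ppfibp2, with Pearson's r of 0.992 to 0.993. Those most like Irs2 were Flcn (0.990), Mfsd11 (0.988), Appl2 (0.986), Fzd6 (0.984) and Gm4740 (0.984). These values describe the libraries and share the split between kidneys with and without Cre; within the 13 kidneys with Cre the same genes had r of 0.932 to 0.961 with Prkag2 and 0.879 to 0.958 with Irs2. Among the members themselves, Appl2 ranked 154th and Irs2 229th in likeness to Prkag2 (r of 0.976 and 0.969), and Prkaa2 had the most negative value (-0.955).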

How the data were processed

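Whole kidneys were sequenced after poly(A) selection with a stranded library kit. The authors trimmed reads with Trim Galore 0.6.6 (cutadapt 2.5), aligned them with STAR 2.7.9a and estimated abundance with RSEM, per the study's methods and the submitters' processing notes. These methods name the human build hg38 for the alignment and hg38 or GRCm38 for the annotation, whereas the deposited tables list mouse transcripts, and which build was used was not settled here. The deposited expected counts per transcript are RSEM's estimates, not normalized, and the deposited TPM are RSEM's values, scaled by the authors for transcript length and library total.

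Of 119353 transcripts, 116770 (97.8%) matched GENCODE on GRCm38 by identifier and were summed to 35971 genes; 2583 did not match and were left out. Summed expected counts were rounded to whole numbers. Genes were filtered with filterByExpr (minimum count 10), scaled by TMM and tested with glmQLFit and glmQLFTest of edgeR 4.0.16 (R 4.3.3) in 1 fit of all 5 groups, with Benjamini-Hochberg adjustment over all tested genes and a threshold of 0.05. CPM are on the TMM scale. Transcripts were tested in the same way, and their usage with diffSpliceDGE. Shares of TPM were compared by exact two-sided permutation tests (scipy 1.17.1) with adjustment over 16 tests. The tests were tried on simulated data. DESeq2 1.42.0 and limma 3.58.1 served as alternatives; the study used DESeq2.

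Library totals ran from 16504419 to 24668827, so that low values such as Prkag2-202 without Cre carry the largest counting error. No 2 libraries held identical values. Nothing says which kidneys shared a litter or a preparation day, so p-values measure the spread between these samples.

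The members, pathway lists and marker lists were chosen with earlier results of these data known. Named were the 10 members, Prkag3, transcripts of Prkag2 with a mean of at least 1 TPM in a group, the 3 called genes with the largest change each way in each pathway list, the 5 genes most correlated with Prkag2 and with Irs2, and Hif1a and Epas1. Sequences are from RefSeq on GRCm38.p6. 1 gene of the pathway lists is not reported here.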

Additional observations from a re-analysis of the deposited data

Results flagged for a closer look

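In 40 sets of 4 samples (genes and Prkag2 transcripts in the 2 groups of that size), Dixon's test at the 95% level flagged 3. The test divides a sample's gap to the nearest other by the range. Chance alone gives about 1 in 20 for continuous values, but this rate does not hold where all other samples are 0. There the ratio is 1.0 whatever the remaining value. Prkag2-210 had such values in both groups (0.247 TPM in Cre(-) replicate 3, 0.314 TPM in Hif1α KO replicate 4) and was not among the 3. Prkag1 was 44.5 CPM in Cre(-) replicate 3, below the other 3 kidneys at 51.4 to 52.2 CPM (gap over range 0.898). Prkag2-203 was 8.04 TPM in Hif1α KO replicate 1 and 0 in the other Hif1α KO kidneys. Prkag2-204, a short annotated transcript of 211 bases, was 0.536 TPM in Cre(-) replicate 3 and 0 in the other Cre(-) kidneys. That value rests on 1.0 estimated read, under the 3 reads taken as the smallest amount that a library can show. The cause of these values was not tested.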

How the results depend on the processing

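In KI against Cre(-) kidneys 9 or 10 members were called under all 11 alternatives and 9 with any library left out, and no called fold change of a member changed sign under an alternative run. The called value of the transcript Prkag2-201 did so on library totals (0.02 against -0.31). Insr missed the threshold against Cre(-) with limma on log2(TPM + 1) in KI, Hif1α KO and DKO kidneys (limma adjusted p = 0.184, 0.164 and 0.13). The knockout calls were less stable. In Hif1α KO against KI kidneys, DESeq2 called all 3 members, and limma on log2(TPM + 1) or log2(TPM + 0.1) called 2. The 3 members became 1 with library totals only and 1 without a filter on low counts. They became 0 with the adipocyte score as a covariate or with only the groups compared in the fit. Prkag2's log2 fold change was -0.74 and -0.81 there, against -0.82, while all genes called went from 925 to 384 and 246. Leaving out a library gave 0 to 3. In Hif2α KO against KI kidneys, 1 member became 2 with DESeq2 and 0 with the adipocyte score, with limma on log2(TPM + 1) or log2(TPM + 0.1), or with only the groups compared, and leaving out a library gave 0 to 2. Irs2's log2 fold change was -0.77 with the score and -0.75 with only the groups compared, against -0.76, while all genes called went from 236 to 63 and 2. In Hif1α KO against Hif2α KO kidneys DESeq2 called 1 member. In DKO against KI kidneys 2 or 3 members were called throughout. Usage of Prkag2 transcripts in Hif1α KO against KI kidneys had an edgeR adjusted p of 0.0502 with library totals only, and 0.0224 to 1 with a library left out. Apart from fewer samples or genes in some fits, the cause was not tested.

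Replicate numbers showed no sign of pairing the samples. The deviations of same-numbered samples had a median correlation of -0.03 (31 pairs, -0.22 to 0.25) against 0.01 for other pairs. Such correlations cannot exclude a shared litter or preparation, on which the labels are silent. With the number as a replicate block, 0 members were called in Hif1α KO and 0 in Hif2α KO against KI kidneys, the adjusted p of Prkag2 usage in Hif1α KO kidneys was 0.625 (edgeR), and 3 members were called in DKO kidneys. Under the block Prkag2 in Hif1α KO kidneys had -0.83 and Irs2 in Hif2α KO kidneys -0.76, and all genes called went from 925 to 479 and from 236 to 76. By expected counts in place of TPM, Prkag2-202 gained 74.1 percentage points of Prkag2 in KI kidneys, against 49.6. Low counts limit the values of Prkag2-202, Prkag2-203 and Prkag2-204 in Cre(-) kidneys.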
